A study of Mus musculus with 21 samples.

Results

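The 10 genes described here are Atf4, Ddit3, Gdf15, Trib3, Chac1, Asns, Hspa5, Sdf2l1, Hsp90b1 and Creld2, chosen by symbol as genes of the integrated stress response and of protein folding in the endoplasmic reticulum (ER). They are 10 of the 23238 symbols in the count files, and 10 of 10 passed the count filter that left 14727 genes for testing. The study placed the e-cigarette solvent propylene glycol (PG) or the oily vaping additive vitamin E acetate (VEA) in the trachea of C57BL/6 mice and sequenced the 3′ ends of lung transcripts. There were 3 animals in each of 7 groups, which received saline, 10% ethanol, PG 826, PG 1100, VEA 3.12, VEA 6.25 or VEA 12.5. Each animal was given 50 µL daily over 14 days, death followed on day 15, and lavage of the airways preceded collection of the lung. PG is compared with saline and VEA with 10% ethanol, the controls named in the labels. The labels state the doses in mg/kg and the series text states the same figures in mg/mL, so the doses are given as plain figures. What VEA was dissolved in is not stated, and a change with VEA is therefore a difference from the ethanol animals. In bulk libraries such as these fewer cells of a type and less RNA per cell cannot be told apart.

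In the integrated stress response, kinases that sense ER stress, amino acid shortage, haem shortage or viral RNA phosphorylate the initiation factor eIF2, which slows protein synthesis while translation of the transcription factor ATF4 goes up. ATF4 and its partner CHOP, the product of Ddit3, then raise genes for amino acid synthesis, redox defence and cell death, and ATF4 itself is controlled largely at translation, which an mRNA count does not measure. Under ER stress the sensors IRE1 and ATF6 raise a separate set of genes, the ER chaperones, of which Hspa5 (BiP) is the best known. In the lung, secretory cells such as club, goblet and type II cells and plasma cells carry a heavy ER load, and macrophages take up inhaled lipid.

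The libraries held 8778028 to 11783151 counts each and 14843 to 15992 genes with a count. The ribosomal symbol Rn45s took 14.6% to 26.1% of the counts and the haemoglobin symbols 4.06% to 13.8%. All 5 defining markers of lung epithelium (Sftpc, Sftpb, Scgb1a1, Ager and Foxj1) had counts in all 21 libraries, with Sftpc at 13731 to 33270 CPM and Foxj1 at 21.6 to 56.5 CPM. CPM are counts relative to the library total after TMM scaling, and changes are log2 fold changes ± SE from edgeR's quasi-likelihood test with Benjamini-Hochberg adjustment over the 14727 genes. A gene is called when the adjusted p is below 0.05. Levels are compared between genes only as ratios within a library, where these are given.

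Promoter windows are shown for the 3 genes called with VEA (Gdf15, Sdf2l1 and Ddit3) and for the 6 genes whose window holds a stress element, so that the letters of each can be compared. All 10 genes were matched in the RefSeq promoter table for GRCm38.p6, which gives 250 bases before to 50 bases after each transcript start, written 5′ to 3′ on the gene's strand. Capitals mark a match, on either strand, to the ER stress response element (CCAAT and CCACG with any 9 bases between) in Hspa5, Hsp90b1 and Creld2, or to the C/EBP-ATF element TGATGNAA in Chac1, Asns and Trib3. The windows of Gdf15 (the first of its 2), Sdf2l1 and Ddit3 have no match to either and are printed without capitals.
Gdf15, chr8:70632407-70632706, minus strand: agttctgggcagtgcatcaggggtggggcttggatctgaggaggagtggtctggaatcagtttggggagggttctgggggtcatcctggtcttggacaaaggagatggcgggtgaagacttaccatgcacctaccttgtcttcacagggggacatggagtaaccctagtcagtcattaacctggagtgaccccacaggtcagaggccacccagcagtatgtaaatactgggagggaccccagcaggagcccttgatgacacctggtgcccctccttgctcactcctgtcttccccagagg
Sdf2l1, chr16:17132334-17132633, minus strand: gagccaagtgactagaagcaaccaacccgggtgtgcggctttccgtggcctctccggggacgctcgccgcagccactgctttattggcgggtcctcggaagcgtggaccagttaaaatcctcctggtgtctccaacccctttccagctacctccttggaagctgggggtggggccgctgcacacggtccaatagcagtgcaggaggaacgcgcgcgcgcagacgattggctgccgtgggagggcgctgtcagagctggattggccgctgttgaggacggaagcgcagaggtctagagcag
Ddit3, chr10:127290543-127290842, plus strand: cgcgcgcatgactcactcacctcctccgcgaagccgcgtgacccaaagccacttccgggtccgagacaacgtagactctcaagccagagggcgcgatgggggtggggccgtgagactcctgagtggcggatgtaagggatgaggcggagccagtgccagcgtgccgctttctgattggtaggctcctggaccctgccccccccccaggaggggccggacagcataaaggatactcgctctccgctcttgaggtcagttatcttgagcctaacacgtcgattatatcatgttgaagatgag
Hspa5, chr2:34771840-34772139, plus strand: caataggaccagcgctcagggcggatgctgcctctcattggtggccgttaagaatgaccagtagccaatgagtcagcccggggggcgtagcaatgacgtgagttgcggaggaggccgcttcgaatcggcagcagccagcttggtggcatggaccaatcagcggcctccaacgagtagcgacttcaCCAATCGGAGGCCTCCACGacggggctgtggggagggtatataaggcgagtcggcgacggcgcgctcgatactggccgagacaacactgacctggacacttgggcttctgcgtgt
Hsp90b1, chr10:86705395-86705694, minus strand: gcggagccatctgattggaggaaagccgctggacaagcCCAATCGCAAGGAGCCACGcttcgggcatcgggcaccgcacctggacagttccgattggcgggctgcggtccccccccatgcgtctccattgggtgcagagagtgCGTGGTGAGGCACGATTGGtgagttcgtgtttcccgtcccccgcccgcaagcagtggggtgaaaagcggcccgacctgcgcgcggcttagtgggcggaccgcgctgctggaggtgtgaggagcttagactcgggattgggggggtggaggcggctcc
Creld2, chr15:88819396-88819695, plus strand: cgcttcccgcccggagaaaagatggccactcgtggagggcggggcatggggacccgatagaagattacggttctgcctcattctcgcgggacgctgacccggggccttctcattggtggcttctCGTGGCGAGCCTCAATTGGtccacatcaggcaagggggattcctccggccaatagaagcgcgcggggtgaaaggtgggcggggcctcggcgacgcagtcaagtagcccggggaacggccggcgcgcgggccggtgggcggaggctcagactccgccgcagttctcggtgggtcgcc
Chac1, chr2:119350992-119351291, plus strand: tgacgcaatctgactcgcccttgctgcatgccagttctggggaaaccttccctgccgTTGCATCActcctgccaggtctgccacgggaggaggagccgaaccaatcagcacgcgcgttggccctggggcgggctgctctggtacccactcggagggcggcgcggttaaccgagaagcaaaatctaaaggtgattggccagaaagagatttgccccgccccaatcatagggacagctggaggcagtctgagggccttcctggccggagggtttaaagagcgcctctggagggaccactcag
Asns, chr6:7693160-7693459, minus strand: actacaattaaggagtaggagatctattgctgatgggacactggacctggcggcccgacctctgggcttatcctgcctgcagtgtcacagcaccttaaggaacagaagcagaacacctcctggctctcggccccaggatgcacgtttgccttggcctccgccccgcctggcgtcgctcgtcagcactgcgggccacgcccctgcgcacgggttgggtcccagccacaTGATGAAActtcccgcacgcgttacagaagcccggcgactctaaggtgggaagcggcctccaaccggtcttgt
Trib3, chr2:152344011-152344310, minus strand: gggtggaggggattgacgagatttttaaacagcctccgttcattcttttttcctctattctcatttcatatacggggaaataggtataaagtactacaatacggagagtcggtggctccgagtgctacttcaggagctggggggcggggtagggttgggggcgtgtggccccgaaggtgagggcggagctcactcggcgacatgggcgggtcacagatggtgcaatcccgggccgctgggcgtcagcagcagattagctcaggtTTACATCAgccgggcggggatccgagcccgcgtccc

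The ER stress response element, which binds ATF6 and XBP1 with the CCAAT factor NF-Y, was found once in Hspa5 (65 bases before the start), in 2 places in Hsp90b1 (212 and 107 before) and once in Creld2 (126 before). It is in 0.119% of the 32851 windows of the table. Among the ER chaperone genes, 3 of 4 windows held it and that of Sdf2l1 did not, although Sdf2l1 held the plain box CCAAT, which is part of the element and is in 37.4% of windows. The C/EBP-ATF element was found in Chac1 (193 before the start), Asns (23 before) and Trib3 (15 after) and is in 3.97% of windows. It was not in the windows of Atf4, Ddit3 or Gdf15. A match describes the letters and is not evidence of binding, and sites outside these windows were not searched.

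Counted over the 10 genes, none changed with PG 826, 1 rose with PG 1100, and 2, 2 and 3 rose with VEA 3.12, 6.25 and 12.5. The share of all genes called was 0.136% for PG 826, 7.31% for PG 1100, 5.51% for VEA 3.12, 5.76% for VEA 6.25 and 9.71% for VEA 12.5. Called genes that were higher made up 0.0951% and 4.09% of all genes in the PG doses and 3.42%, 3.51% and 5.48% in the VEA doses, and those lower 0.0407% and 3.23%, and 2.09%, 2.25% and 4.23%. No member was called lower in any of these. In the mean of the VEA doses against ethanol, Gdf15, Sdf2l1 and Ddit3 were called higher, where 11.6% of all genes were called, 6.08% higher and 5.57% lower. There the Ddit3 call was lost without ethanol animal 13 (adjusted p = 0.120, edgeR), ethanol animal 14 (0.108) or the 3 libraries with the fewest genes (0.101), and held in 16 of 19 alternatives, from 0.0054. The VEA doses share the ethanol animals and the PG doses the saline animals, so their comparisons are not independent. The median log2 fold change of the 10 genes was -0.18 and 0.19 for the PG doses and 0.59, 0.37 and 0.62 for the VEA doses, beside 0.00 and 0.01 and -0.01, 0.00 and -0.01 over all genes tested. With PG 826 the count was also 0 with DESeq2, with limma-voom and at an unadjusted p below 0.05. Among the 7 groups, 5 genes differed (Ddit3, Gdf15, Trib3, Chac1 and Sdf2l1), where 14.6% of all genes did.

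**Figure D1:**
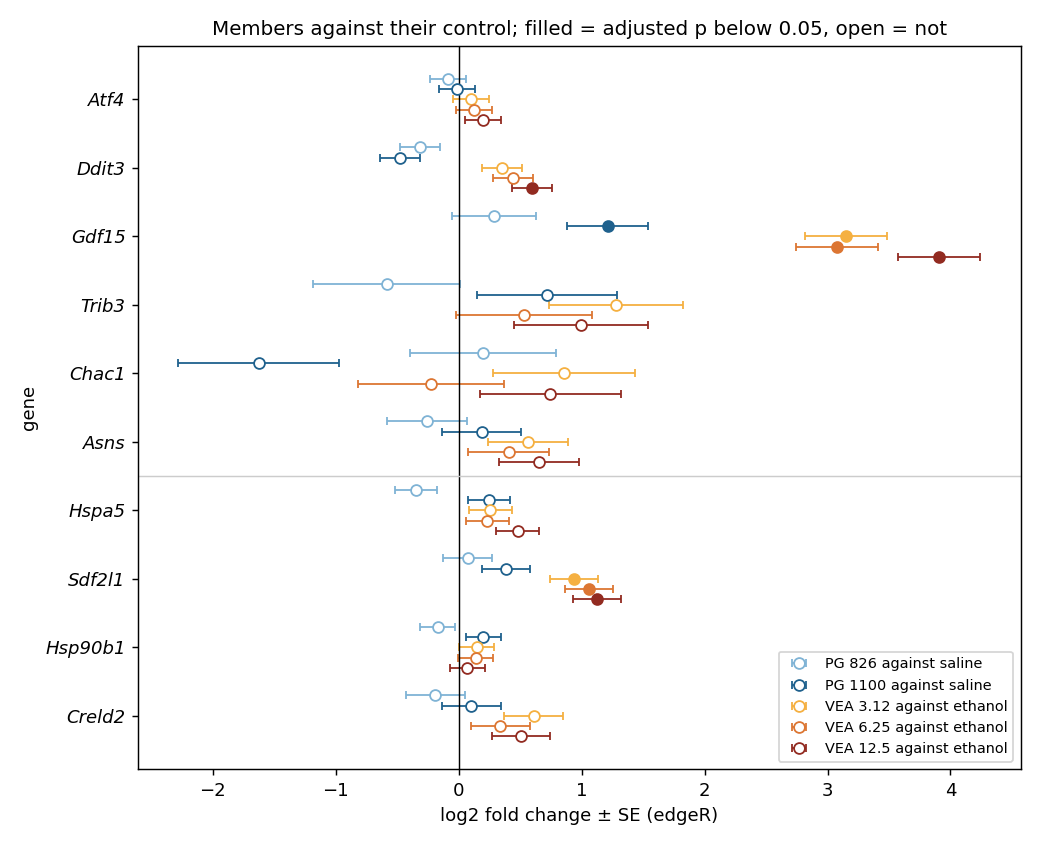
Log2 fold change ± SE (x axis) of the 10 genes (y axis) in each dose against its control, n = 3 animals per group. Filled points passed an adjusted p of 0.05, and these were Gdf15 and Sdf2l1 at each VEA dose, Ddit3 at VEA 12.5 and Gdf15 at PG 1100.

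Gdf15 (chr8:70629393-70632456, minus strand) encodes a secreted stress hormone of the TGF-beta superfamily that is raised by ATF4 and CHOP. The ethanol animals 12, 13 and 14 had 1.43, 2.38 and 2.05 CPM. With VEA 3.12, animals 56, 57 and 59 had 16.1, 13.9 and 22.4 CPM. VEA 6.25 gave 15.1, 17.7 and 17.0 CPM in animals 63, 64 and 65, and VEA 12.5 gave 22.2, 28.7 and 37.6 CPM in animals 66, 68 and 70. The lowest of the 9 VEA animals thus lay far above the highest ethanol animal. The rises were 3.15 ± 0.33 (adjusted p = 4.06e-08), 3.08 ± 0.33 (adjusted p = 4.8e-08) and 3.91 ± 0.33 (adjusted p = 1.63e-10) by edgeR. They kept their call in 13 of 13 alternatives at each dose, with adjusted p up to 0.000217. Among all 14727 genes the change at these doses was in place 7, 11 and 5 by p value.

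Across the VEA doses the Gdf15 groups for 3.12 and 6.25 overlapped, and so did those for 3.12 and 12.5, where the highest VEA 3.12 animal (22.4 CPM) lay just above the lowest VEA 12.5 animal (22.2 CPM). VEA 12.5 was higher than VEA 3.12 by 0.76 ± 0.28, which did not pass (adjusted p = 0.823, edgeR). No gene of the 14727 was called in that comparison or in the trend over dose (0% in both), nor was any by DESeq2 or limma-voom among the 10 genes, and 1 of the 10, Gdf15, had an unadjusted p below 0.05 in each.

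With PG the Gdf15 values were lower. The saline animals 6, 8 and 10 had 4.24, 1.95 and 1.65 CPM, and PG 826 gave 2.74, 3.74 and 3.12 CPM in animals 22, 23 and 25, inside the saline range. PG 1100 gave 4.83, 6.64 and 6.90 CPM in animals 27, 28 and 30. All 3 PG 1100 animals lay above the saline animals, with animal 27 near saline animal 6. The rise over saline was 1.21 ± 0.33 (adjusted p = 0.0156, edgeR). It passed in 6 of 13 alternatives, whose adjusted p ran from 0.00151 to 0.201. The call was lost in limma-voom (0.126), in a fit of the compared groups only (0.201), without the 3 libraries with the fewest genes (0.0759), and without saline animal 8 (0.080), saline animal 10 (0.111), PG 1100 animal 28 (0.0678) or PG 1100 animal 30 (0.0515). The step from PG 826 to PG 1100 was 0.92 ± 0.32 (adjusted p = 0.0855).

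The Gdf15 change with VEA 12.5 was larger than that with PG 1100 by 2.70 ± 0.46 (adjusted p = 0.0042 by edgeR). In that test of the difference 0.19% of all genes were called (0.136% higher and 0.0543% lower), among them 2 of the 10 genes, Gdf15 and Ddit3. The Gdf15 difference passed in 18 of 19 alternatives, with adjusted p from 6.95e-06 to 0.160, the last in limma-voom. Ordered by mean, the Gdf15 groups ran ethanol, saline, PG 826, PG 1100, VEA 6.25, VEA 3.12 and VEA 12.5. The neighbours PG 826 and PG 1100, and PG 1100 and VEA 6.25, did not overlap, and the other 4 neighbouring pairs did.

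**Figure D2:**
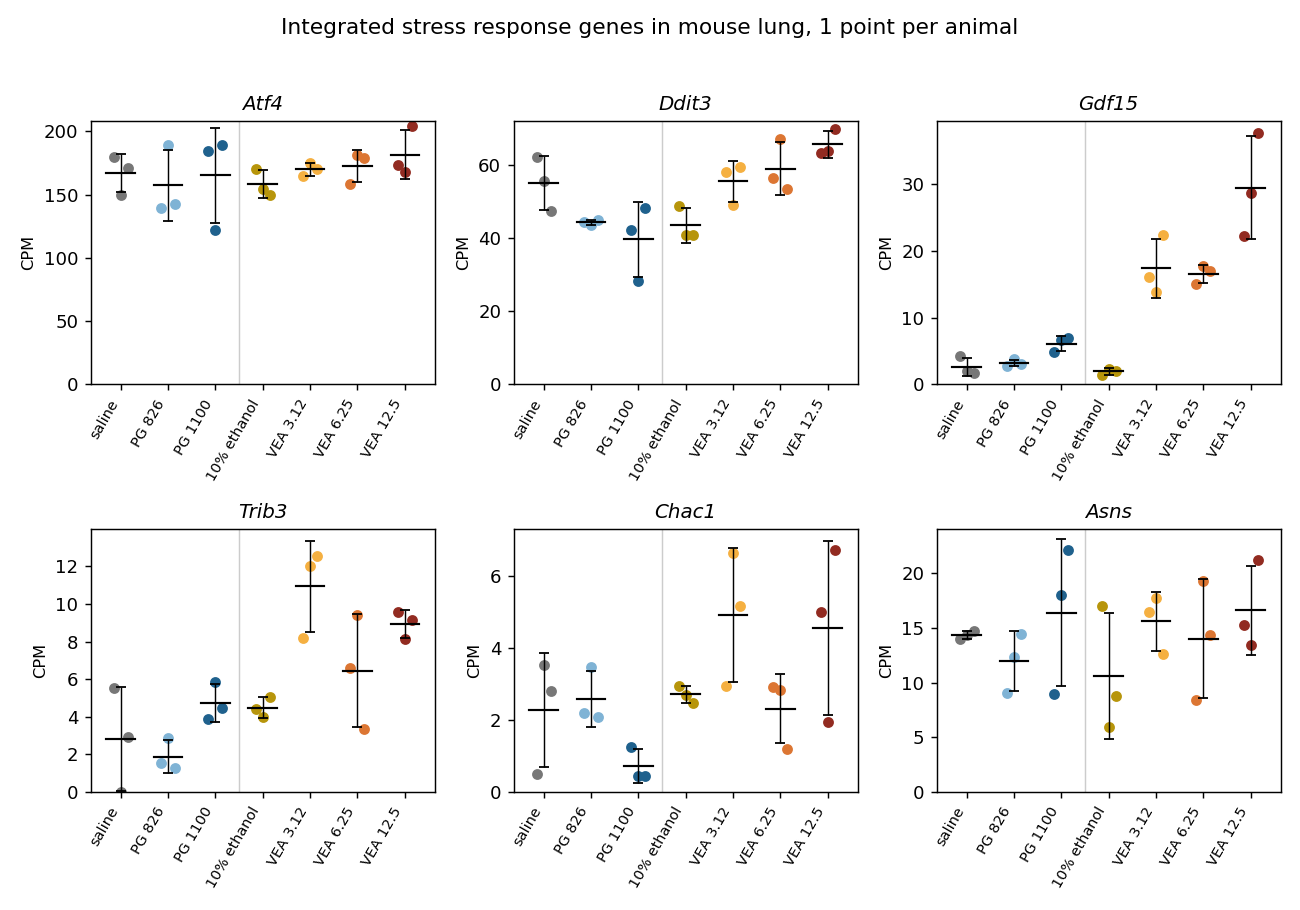
CPM (y axes, linear, starting at 0) of the 6 integrated stress response genes in the 7 groups (x axes), 1 point per animal with the mean (bar) and SD. Gdf15 stands at 13.9 to 37.6 CPM in the 9 VEA animals and at 1.43 to 6.90 CPM in the other 12, while the Atf4 groups overlap throughout.

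Atf4 (chr15:80255184-80257541), the central transcription factor of the response, was flat at the mRNA level. Its lowest, median and highest values over the 21 libraries were 122, 171 and 204 CPM, and all 6 pairs of neighbouring groups overlapped. The changes ran from -0.09 ± 0.15 with PG 826 to 0.20 ± 0.15 with VEA 12.5 (adjusted p = 0.474, edgeR). The 95% interval of the VEA 12.5 change was -0.10 to 0.49.

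Ddit3 (chr10:127290774-127296288), encodes CHOP, a transcription factor that acts with ATF4 and can promote cell death. The ethanol animals had 48.8, 40.7 and 40.7 CPM, and VEA 12.5 had 63.1, 63.9 and 69.8 CPM, with no overlap. VEA 3.12 gave 58.0, 49.1 and 59.4 CPM and VEA 6.25 gave 56.4, 67.0 and 53.2 CPM, all above the highest ethanol animal. The means of these 2 doses, 55.5 and 58.9 CPM, lay near the saline mean of 55.1 CPM, while the ethanol mean was 43.4 CPM. The rise with VEA 12.5 was 0.59 ± 0.16 (adjusted p = 0.0133, edgeR), and those of 0.36 ± 0.16 and 0.44 ± 0.16 at the lower doses did not pass (adjusted p = 0.219 and 0.108). The VEA 12.5 call was lost without ethanol animal 13 (adjusted p = 0.0668), ethanol animal 14 (0.0623), VEA animal 70 (0.0633) or the 3 libraries with the fewest genes (0.0596), and held in 9 of 13 alternatives, from 0.00258.

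With PG 826, Ddit3 values were 44.4, 43.4 and 44.9 CPM, all below the lowest saline animal. That change of -0.32 ± 0.16 did not pass (adjusted p = 0.556, edgeR). With PG 1100, Ddit3 values were 42.2, 28.3 and 48.2 CPM beside 62.2, 55.6 and 47.4 CPM in saline. The groups overlapped through animal 30, and the change of -0.48 ± 0.16 did not pass (adjusted p = 0.0691, edgeR). Without animal 30 it was -0.64 with an adjusted p of 0.0216, the only one of 13 alternatives in which it passed (up to 0.450). The difference between the VEA 12.5 and PG 1100 changes was 1.07 ± 0.23 (adjusted p = 0.0272, edgeR). It passed in 10 of 19 alternatives (adjusted p from 0.00208 to 0.140). It was lost in a fit of the compared groups only (0.0984), without the 3 libraries with the fewest genes (0.140), and without saline animal 6 (0.0546) or 8 (0.0686), ethanol animal 13 (0.0824) or 14 (0.0822), PG 1100 animal 28 (0.0781), or VEA animal 68 (0.0605) or 70 (0.0982).

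The Ddit3 counts carry a limit of position. The gene ends tail to tail with Mars, the methionyl-tRNA synthetase gene on the other strand, and the 2 genes share 68 bases (chr10:127296221-127296288) at their 3′ ends, where 3′ sequencing places its reads. Whether the counting used strand is not given in the sources used here, so reads of Ddit3 and Mars in that stretch cannot be told apart. Over the 21 libraries the ratio of Ddit3 to Mars counts stayed between 0.911 and 1.28, with a median of 1.08. Mars was also the gene most like Ddit3 among the 10188 compared, with Pearson r = 0.92 over the 21 libraries and 0.79 after group means were removed, a description across libraries that share the treatment. Mars rose with VEA 12.5 by 0.61 ± 0.16 (adjusted p = 0.012, edgeR), where 5.48% of all genes were called higher. Of the other 11 aminoacyl-tRNA synthetase genes tested none was called. Beside the 9.71% of all genes called with VEA 12.5, that 0 among 11 is not read as particular to the list. The Mars call was lost without ethanol animal 13 (0.0753), ethanol animal 14 (0.0614), VEA animal 70 (0.0646) or the 3 libraries with the fewest genes (0.0694), and held in 9 of 13 alternatives, from 0.00371.

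**Figure D3:**
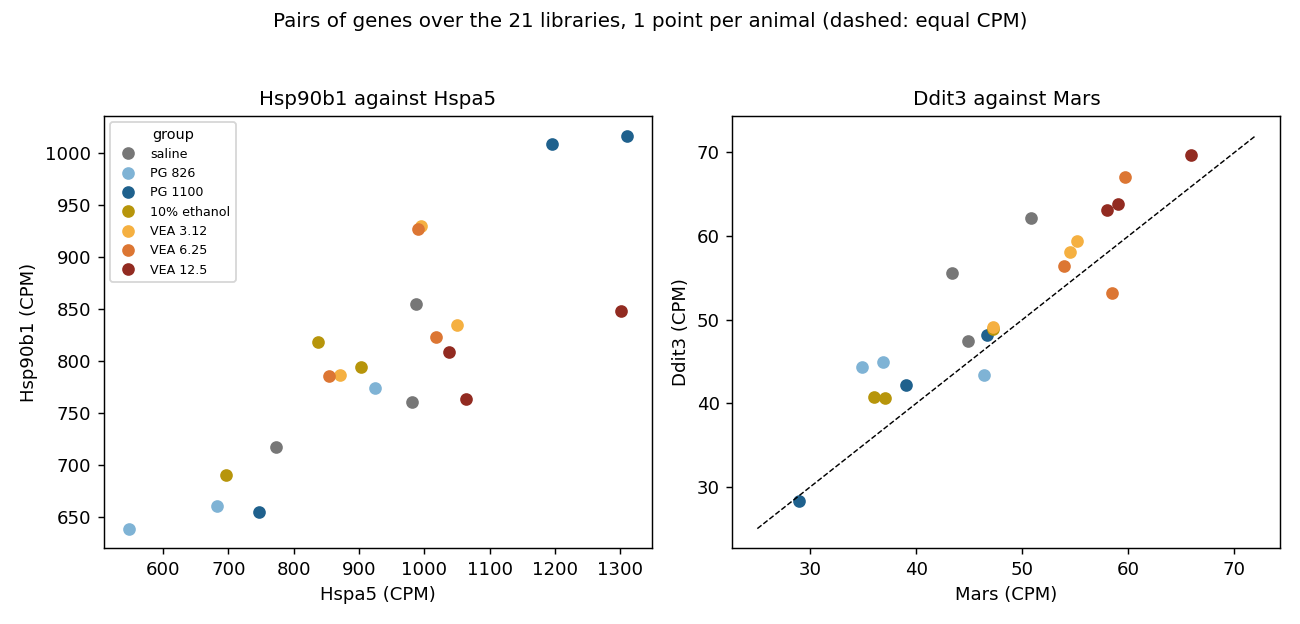
CPM of Hsp90b1 against Hspa5 (left) and of Ddit3 against Mars (right) in the 21 libraries, 1 point per animal, coloured by group (axes do not start at 0). The Ddit3 points follow the dashed line of equal CPM, with count ratios of 0.911 to 1.28, and 2 PG 1100 animals stand at the upper right for the chaperone pair.

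Trib3, Chac1 and Asns, the other ATF4 targets among the 10 genes, were not called in a comparison of a dose with its control. Trib3, a pseudokinase that restrains the response, had 4.39, 4.0 and 5.07 CPM in ethanol and 8.18, 12.0 and 12.6 CPM in VEA 3.12, without overlap. That change was 1.28 ± 0.55 (adjusted p = 0.19, edgeR), and it passed in 2 of 13 alternatives, in a fit of the compared groups only (0.0168) and with no count filter (0.0326). VEA 12.5 gave 9.57, 8.12 and 9.17 CPM, also above all ethanol animals, at 1.00 ± 0.54 (adjusted p = 0.30), and passed in the fit of the compared groups only (0.0370). VEA 6.25 overlapped ethanol at 6.58, 9.43 and 3.37 CPM. Saline animal 8 had no Trib3 count, which allows up to 3 counts or 0.365 CPM, while saline animals 6 and 10 had 5.53 and 2.92 CPM.

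Chac1 encodes an enzyme that degrades glutathione and is a sensitive ATF4 target. It was lowest in PG 1100, at 1.26, 0.443 and 0.445 CPM, beside 2.19, 3.48 and 2.08 CPM in PG 826 and 0.493, 3.53 and 2.82 CPM in saline. Saline animal 6 lay among the PG 1100 animals, and the 2 PG groups did not overlap. The change was -1.62 ± 0.65 against saline (adjusted p = 0.136) and -1.82 ± 0.65 against PG 826 (adjusted p = 0.0987, edgeR). Without saline animal 6 the first was -2.11 (adjusted p = 0.0373), and without PG 1100 animal 27 the second was -2.51 (adjusted p = 0.0368). These levels rest on as few as 4 counts per library. With VEA, Chac1 ran from 1.2 to 6.73 CPM around ethanol values of 2.48 to 2.96, and its changes were 0.86 ± 0.58, -0.22 ± 0.59 and 0.75 ± 0.58.

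Asns, asparagine synthetase, varied more between ethanol animals than between groups. The ethanol values were 17.0, 5.94 and 8.74 CPM and the saline values 14.0, 14.4 and 14.7 CPM. The VEA changes were 0.56 ± 0.33, 0.41 ± 0.33 and 0.65 ± 0.32 and did not pass (adjusted p = 0.371, 0.554 and 0.234, edgeR). Without ethanol animal 12, the high one, the VEA 12.5 change was 1.18 (adjusted p = 0.0283).

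Among the ER chaperone genes, Sdf2l1 (chr16:17130138-17132383, minus strand) was the one called with VEA. Its product is a partner of BiP in the folding complex of the ER. Ethanol animals had 26.3, 25.9 and 22.2 CPM. VEA 3.12 gave 39.2, 59.5 and 43.9 CPM, VEA 6.25 gave 48.1, 56.6 and 50.4 CPM, and VEA 12.5 gave 51.6, 49.6 and 61.2 CPM. All 9 VEA animals were above all 3 ethanol animals, and the 3 VEA groups overlapped each other. The rises of 0.94 ± 0.20, 1.06 ± 0.20 and 1.12 ± 0.20 were called (adjusted p = 0.00228, 0.000587 and 0.000119, edgeR) and stayed so in 13 of 13 alternatives each, with adjusted p up to 0.037.

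With PG, Sdf2l1 did not pass. Saline gave 32.0, 22.5 and 20.9 CPM, PG 826 gave 22.7, 32.0 and 24.6 CPM and PG 1100 gave 25.0, 31.2 and 42.6 CPM. The groups overlapped, with animal 30 of PG 1100 the highest, and the PG 1100 change was 0.39 ± 0.20 (adjusted p = 0.268, edgeR). The VEA 12.5 change exceeded it by 0.74 ± 0.28, which did not pass either (adjusted p = 0.404), so the agents were not shown to differ for Sdf2l1.

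**Figure D4:**
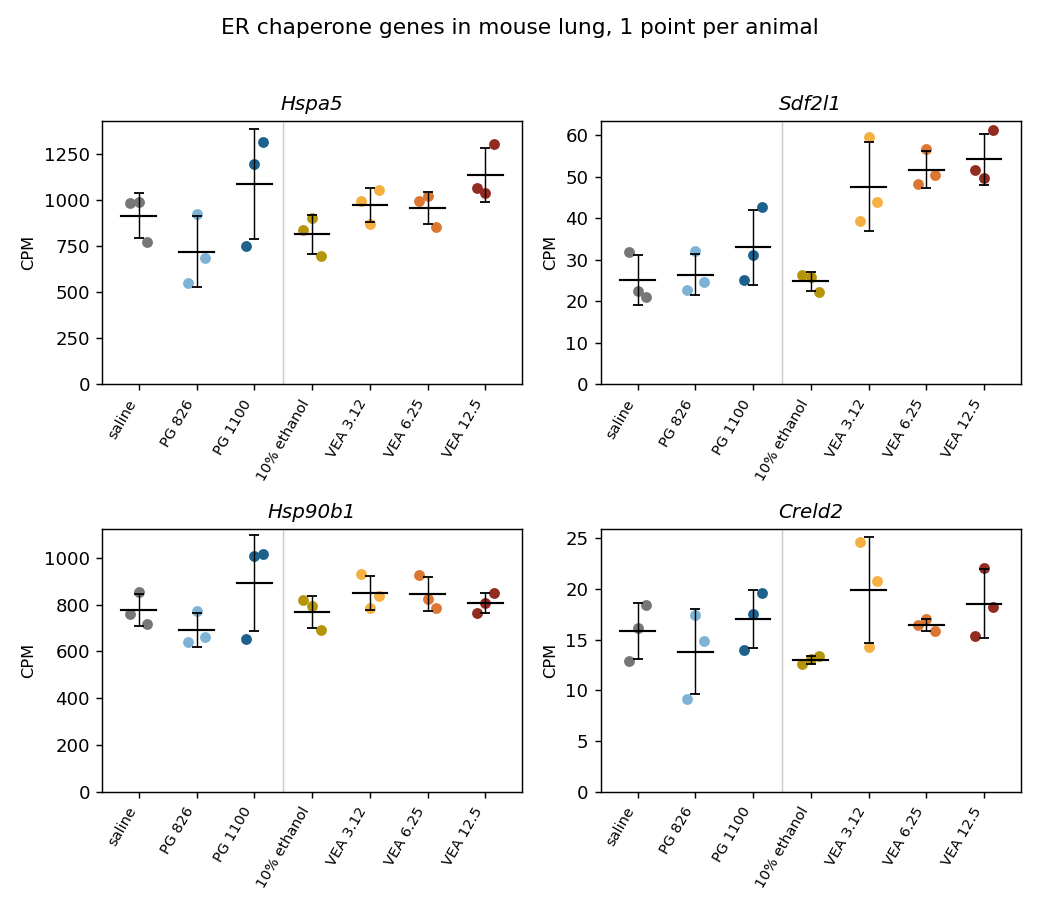
CPM (y axes, linear, starting at 0) of the 4 ER chaperone genes in the 7 groups (x axes), 1 point per animal with the mean (bar) and SD. Sdf2l1 is at 39.2 to 61.2 CPM in the 9 VEA animals and 22.2 to 26.3 CPM in ethanol. Creld2 also does not overlap ethanol at any VEA dose, nor does Hspa5 at VEA 12.5, while Hsp90b1 overlaps it at each. For all 4 genes each group overlaps the next when groups are ordered by mean.

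Hspa5 (chr2:34771970-34777547), the ER Hsp70 known as BiP, had 837, 903 and 696 CPM in ethanol and 1064, 1038 and 1301 CPM in VEA 12.5. These groups did not overlap, but the change of 0.48 ± 0.17 missed the threshold (adjusted p = 0.0766, edgeR). It passed in 2 of 13 alternatives, with no count filter (0.0168) and in a fit of the compared groups only (0.00234). The lower VEA doses overlapped ethanol at 0.26 ± 0.17 and 0.23 ± 0.17.

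Hsp90b1 (chr10:86690209-86705509, minus strand), the ER member of the Hsp90 family known as GRP94, changed by 0.15 ± 0.14, 0.14 ± 0.14 and 0.07 ± 0.14 with VEA, with overlap at 12.5 (763, 809 and 848 CPM against 818, 794 and 690). Its 3′ end lies within the pseudogene 1810014B01Rik on the other strand (4598 shared bases), which was called in none of these comparisons. Creld2, an ER protein with disulphide isomerase activity, had 12.6, 13.1 and 13.4 CPM in ethanol and 24.6, 14.3 and 20.7 CPM in VEA 3.12. These values did not overlap, and the change was 0.61 ± 0.24 (adjusted p = 0.135, edgeR). At VEA 6.25 and 12.5 it was 0.34 ± 0.24 and 0.51 ± 0.24 (adjusted p = 0.487 and 0.196).

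Sdf2l1 and the larger chaperones were also set against each other within each library, a choice made after their values were seen and therefore given without a test. The log2 ratio of Sdf2l1 to Hspa5 was -4.32 ± 0.25 (SD, n = 9) in VEA and -5.03 ± 0.08 (SD, n = 3) in ethanol, and all 9 VEA animals were above all ethanol animals. The ratio to Hsp90b1 was -4.04 ± 0.27 and -4.95 ± 0.01, again with all 9 above. The ratio to Creld2 was 1.49 ± 0.43 and 0.93 ± 0.17, with 8 of 9 above.

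The PG doses differed for Hspa5. PG 826 gave 547, 925 and 683 CPM in animals 22, 23 and 25 and PG 1100 gave 747, 1196 and 1310 CPM in animals 27, 28 and 30. The groups overlapped, since animal 27 lay below animal 23. The rise from PG 826 to PG 1100 was 0.59 ± 0.17 (adjusted p = 0.0367, edgeR), 1 call among the 10 genes where 5.55% of all genes were called, 2.85% higher and 2.71% lower. It was lost in a fit of the compared groups only (0.161), without the 3 libraries with the fewest genes (0.05), and without PG 826 animal 22 (0.203) or 25 (0.168) or PG 1100 animal 28 (0.226) or 30 (0.223). Neither dose was called against saline, at -0.35 ± 0.17 (adjusted p = 0.544) and 0.25 ± 0.17 (adjusted p = 0.478).

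PG 1100 animal 27 stood apart from animals 28 and 30 for several of these genes. It had 655 CPM of Hsp90b1 beside 1008 and 1016, and 8.99 CPM of Asns beside 18.1 and 22.2. Without it, 4 of the 10 genes were called between the PG doses, while the share over all genes went from 5.55% to 9.69%. These 4 were Hsp90b1 (0.55, adjusted p = 0.00504), Gdf15 (1.08, 0.0394) and Hspa5 higher and Chac1 lower. Over the 21 libraries Hspa5 and Hsp90b1 had r = 0.84, and 0.87 after group means were removed. For other genes PG 1100 animal 28 stood apart, with 122 CPM of Atf4 beside 185 and 189 in animals 27 and 30. It also had 28.3 CPM of Ddit3 beside 42.2 and 48.2. Without animal 28 the share over all genes called went from 7.31% to 3.64% against saline. Between the PG doses it went from 5.55% to 1.72%.

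Ethanol did not differ from saline for any of the 10 genes, nor for any gene tested (0%), by edgeR, and DESeq2 and limma-voom also called 0 of the 10. At an unadjusted p below 0.05, 1 did, Ddit3, at -0.34 ± 0.16 (adjusted p = 0.802). Its ethanol animals lay at 40.7 to 48.8 CPM and its saline animals at 47.4 to 62.2 CPM, with overlap.

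Groups did not overlap for 1 of the 10 genes with PG 826 and 1 with PG 1100, and for 5, 4 and 6 with the VEA doses. Over all genes tested the shares were 13.9% and 19.8%, and 24.7%, 23.5% and 30.1%. The PG doses did not overlap each other for 3 of the 10 genes (20.4% of all genes), VEA 12.5 and 3.12 for 1 (14.3%), and ethanol and saline for 0 (9.06%).

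The genes around the 10 were read from lists of the same pathways. Of 29 tested ATF4 and CHOP targets outside the 10, 0 changed with PG 826, 2 rose with PG 1100, and 5, 4 and 6 rose with VEA 3.12, 6.25 and 12.5. None fell. The share called higher over all genes was 4.09% with PG 1100 and 3.42%, 3.51% and 5.48% with the VEA doses (7.31% called in either direction with PG 1100). The list medians were 0.02, 0.08, 0.08, 0.11 and 0.31. At an unadjusted p below 0.05 the PG 826 count was 1, and it was 0 with DESeq2 and 0 with limma-voom.

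Mthfd2, a mitochondrial enzyme of one-carbon metabolism, had 4.86 to 7.79 CPM in ethanol and 22.9 to 31.5, 16.1 to 25.8 and 22.9 to 35.3 CPM in the VEA doses, with no overlap. Its rise with VEA 12.5 was 2.21 ± 0.30 (adjusted p = 3.29e-06, edgeR). Phgdh, the first enzyme of serine synthesis, rose by 1.77 ± 0.34 (adjusted p = 0.000398) and Atf3, a stress transcription factor, by 1.79 ± 0.31 (adjusted p = 0.000127). These 3 calls held in 13 of 13 alternatives, and all 3 genes also rose at the lower doses, Mthfd2 by 2.09 ± 0.30 and 1.69 ± 0.30, Atf3 by 1.44 ± 0.31 and 1.28 ± 0.31 and Phgdh by 1.44 ± 0.34 and 1.25 ± 0.34. At VEA 6.25 the call of Atf3 was lost without ethanol animal 13 (0.0517), VEA animal 64 (0.079) or the 3 libraries with the fewest genes (0.0642), with 0.00226 as the lowest alternative. That of Phgdh was lost in limma-voom (0.0647), without those 3 libraries (0.187), and without ethanol animal 13 (0.0955) or 14 (0.0855) or VEA animal 64 (0.130) or 65 (0.0838), with 0.00811 as the lowest. Slc7a11, the cystine transporter, rose by 1.44 ± 0.47 (adjusted p = 0.042). Its VEA 12.5 call was lost without ethanol animal 12 (0.221) or 14 (0.0598) or VEA animal 68 (0.154) or 70 (0.113), and its lowest alternative was 0.00895. Psat1, another enzyme of serine synthesis, rose by 1.05 ± 0.30 with VEA 3.12 (adjusted p = 0.0307), lost in the fit of the compared groups only (0.061) and without ethanol animal 12 (0.134) or 14 (0.189) or VEA animal 56 (0.0975) or 59 (0.103), from 0.00119. In the mean of the VEA doses Psat1 was called at 1.13 ± 0.26 (adjusted p = 0.00266, edgeR). That call held in 18 of 19 alternatives and was lost without ethanol animal 14 (0.0561). Pck2, the mitochondrial PEP carboxykinase, rose by 1.02 ± 0.23 with VEA 6.25 (adjusted p = 0.0048), lost without VEA animal 65 (0.0603) or the 3 libraries with the fewest genes (0.155), from 0.000673.

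With PG 1100 the 2 targets called were Mthfd2 and Slc7a11. Mthfd2 rose by 1.33 ± 0.30 (adjusted p = 0.0035, edgeR), lost without PG 1100 animal 28 (0.0545) and in a fit of the compared groups only (0.0554), from 1.73e-05 in the lowest alternative. Slc7a11 rose by 1.63 ± 0.50 (adjusted p = 0.0404). It was lost in limma-voom (0.119), in the fit of the compared groups only (0.141), without the 3 libraries with the fewest genes (0.0698), and without saline animal 8 (0.069), saline animal 10 (0.202) or PG 1100 animal 28 (0.252), while its lowest alternative was 0.00646. From PG 826 to PG 1100, Mthfd2 was called higher at 1.31 ± 0.30 (adjusted p = 0.00511, edgeR). Ppp1r15a at -0.81 ± 0.23 (0.0302) and Slc3a2 at -0.53 ± 0.16 (0.0433) were called lower. Over all genes 2.85% were called higher there and 2.71% lower. These calls held in 12, 7 and 8 of 13 alternatives. Phgdh and Atf3 changed more with VEA 12.5 than with PG 1100, by 2.38 ± 0.48 (adjusted p = 0.0162) and 2.0 ± 0.44 (adjusted p = 0.0399). The Phgdh difference passed in 12 of 19 alternatives (0.00056 to 0.166) and the Atf3 difference in 8 of 19 (0.00394 to 0.176). Leaving out ethanol animal 13 gave 0.0659 for Phgdh and 0.0880 for Atf3. For Phgdh the call was also lost without saline animal 8 (0.0866), ethanol animal 14 (0.0537) or VEA animal 70 (0.0667). For Atf3 the call was also lost without saline animal 6 (0.0505), saline animal 10 (0.073), ethanol animal 14 (0.0822), PG 1100 animal 27 (0.0581), PG 1100 animal 30 (0.0705), VEA animal 68 (0.077) or VEA animal 70 (0.176).

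**Figure D5:**
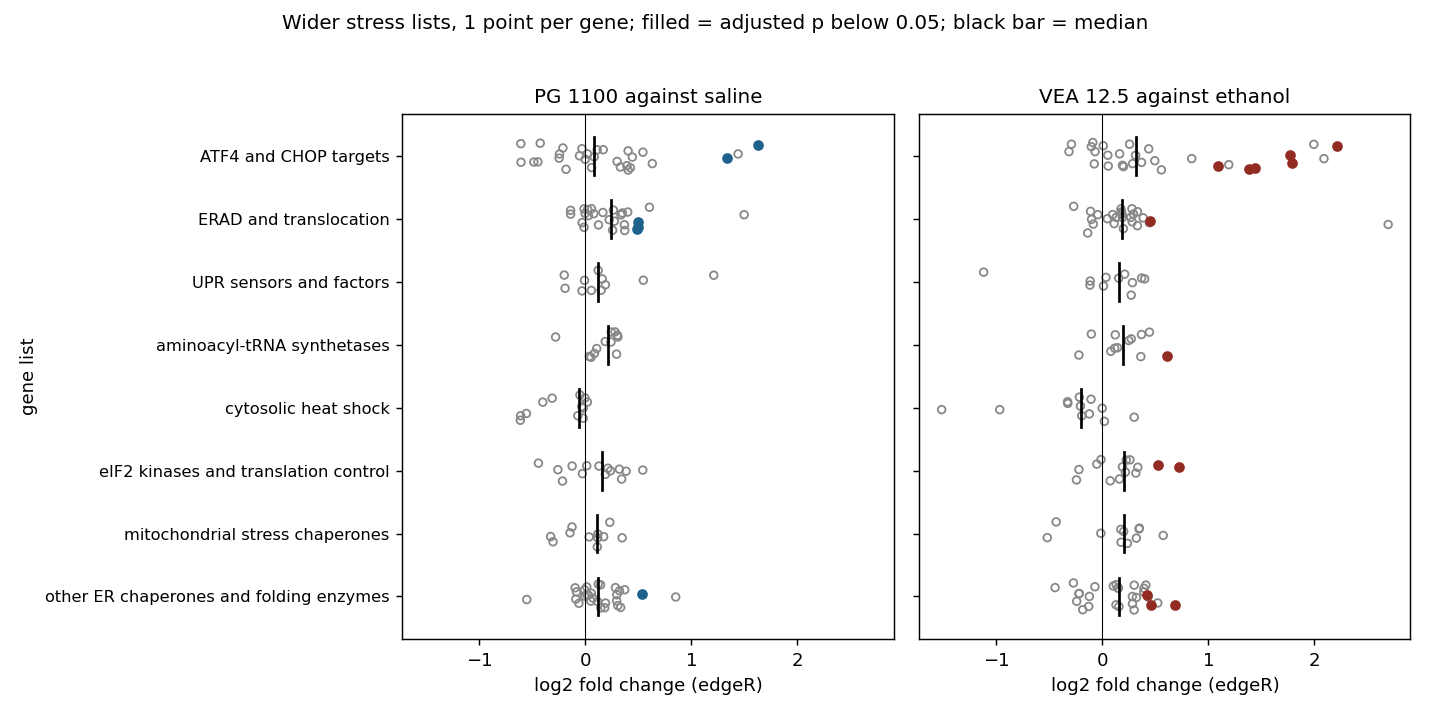
Log2 fold change (x axes) of the tested genes of the 8 lists (y axis, vertical jitter only) in PG 1100 against saline (left) and VEA 12.5 against ethanol (right). Filled points passed an adjusted p of 0.05, black bars are list medians, and the ATF4 and CHOP targets hold 2 filled points on the left and 6 on the right.

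The upstream parts of both pathways were also counted. Of 11 tested sensors and factors of the unfolded protein response, such as Atf6 and Xbp1, 0 were called in any dose comparison, by edgeR and by DESeq2, as with limma-voom. At an unadjusted p below 0.05 the counts were 0 and 0 for PG and 0, 1 and 1 for VEA. Over all genes edgeR called 0.136% and 7.31% with the PG doses and 5.51%, 5.76% and 9.71% with the VEA doses. Beside these shares, 0 calls among 11 genes are not read as particular to the list. Of 14 eIF2 kinases and translation control genes, 2 rose with VEA 12.5, where 5.48% of all genes did, Eif2s1, the regulatory subunit of eIF2, by 0.53 ± 0.16 (adjusted p = 0.026) and Eif2ak2, the RNA-sensing kinase PKR, by 0.72 ± 0.24 (adjusted p = 0.0497). Eif2s1 was lost without ethanol animal 12 (0.0834) or 13 (0.100), VEA animal 68 (0.0517) or 70 (0.153), or the 3 libraries with the fewest genes (0.0852), with 0.0105 as the lowest alternative. Eif2ak2 was lost with no count filter (0.0743) and without ethanol animal 12 (0.185) or 14 (0.131) or VEA animal 68 (0.154) or 70 (0.168), with 0.0245 as the lowest alternative.

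Of 28 other ER chaperones and folding enzymes, 0 changed with PG 826, 1 rose with PG 1100, and 1, 2 and 3 rose with the VEA doses, with medians of -0.04, 0.12, 0.14, 0.15 and 0.16. Beside the 4.09%, 3.42%, 3.51% and 5.48% of all genes called higher, these few calls among 28 are not read as particular to the list. Erp29, an ER folding protein, rose at each VEA dose, from 69.5 to 77.2 CPM in ethanol to 94.9 to 120, 114 to 120 and 113 to 121 CPM. Its VEA 12.5 change was 0.69 ± 0.13 (adjusted p = 0.00035, edgeR) and held in 13 of 13 alternatives. P4hb, a protein disulphide isomerase, rose by 0.54 ± 0.13 with PG 1100 (adjusted p = 0.00598, lost in the fit of the compared groups only at 0.0955, lowest 0.00039) and by 0.42 ± 0.13 with VEA 12.5 (adjusted p = 0.0307). The latter was lost with no count filter (0.0523) and without ethanol animal 12 (0.129) or 14 (0.086) or VEA animal 66 (0.116) or 70 (0.0893), with 0.0038 as the lowest alternative. Pdia3, another isomerase, rose by 0.46 ± 0.15 with VEA 12.5 (adjusted p = 0.0344), lost without ethanol animal 12 (0.0527) or 14 (0.233) or VEA animal 66 (0.140), 68 (0.0522) or 70 (0.0626), from 0.00598. Sdf2, the paralogue of Sdf2l1, rose by 0.57 ± 0.15 with VEA 6.25 (adjusted p = 0.0198), lost without the 3 libraries with the fewest genes (0.246), ethanol animal 13 (0.0988) or 14 (0.0913) or VEA animal 64 (0.0732) or 65 (0.102), from 0.00889. The PG 826 counts of 0 in this list and in the degradation list were also 0 by DESeq2 and limma-voom, with 4 and 3 at an unadjusted p below 0.05.

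Of 26 genes of ER-associated degradation and translocation, 3 rose with PG 1100 (Sec61a1, Ssr2 and Ssr4), and 1, 2 and 1 rose with the VEA doses, with medians of 0.24, 0.23, 0.12 and 0.18. They stand beside 4.09% of all genes called higher with PG 1100 and 3.42%, 3.51% and 5.48% with the VEA doses, and are not read as particular to the list. These 3 PG 1100 rises were 0.50 ± 0.14, 0.50 ± 0.15 and 0.48 ± 0.15 (adjusted p = 0.0247, 0.035 and 0.0399, edgeR). Each was lost in a fit of the compared groups only (0.142, 0.220 and 0.183), without saline animal 10 (0.0991, 0.106 and 0.0594), without PG 1100 animal 28 (0.0725, 0.133 and 0.113) and without animal 30 (0.103, 0.254 and 0.108). Sec61a1 was also lost without saline animal 8 (0.104) or the 3 libraries with the fewest genes (0.109), Ssr2 in limma-voom (0.055), and Ssr2 and Ssr4 without saline animal 6 (0.130 and 0.211). With VEA, Ssr4 rose at 3.12 by 0.54 ± 0.15 and at 6.25 by 0.57 ± 0.15, Spcs1, a signal peptidase subunit, at 6.25 by 0.60 ± 0.15 and Sec61a1 at 12.5 by 0.45 ± 0.14 (adjusted p = 0.0266, 0.0162, 0.0138 and 0.0387). Their calls were kept in 9, 8, 10 and 7 of 13 alternatives, with adjusted p up to 0.128, 0.113, 0.200 and 0.166. Ssr4 at VEA 3.12 lost its call without ethanol animal 12 (0.0978), ethanol animal 14 (0.128), VEA animal 57 (0.116) or VEA animal 59 (0.121). Ssr4 at VEA 6.25 lost its call without the 3 libraries with the fewest genes (0.0649), ethanol animal 12 (0.0702), ethanol animal 14 (0.0938), VEA animal 64 (0.113) or VEA animal 65 (0.086). In the mean of the VEA doses Ssr4 was also called, held in 18 of 19 alternatives and lost without ethanol animal 14 (0.0722). Spcs1 at VEA 6.25 lost its call without the 3 libraries with the fewest genes (0.2), ethanol animal 13 (0.0751) or VEA animal 65 (0.0998). Sec61a1 at VEA 12.5 lost its call without the 3 libraries with the fewest genes (0.0786), ethanol animal 12 (0.164), ethanol animal 13 (0.0893), ethanol animal 14 (0.0567), VEA animal 66 (0.124) or VEA animal 70 (0.166). Among 12 cytosolic heat shock genes, none rose and 1 fell with VEA 6.25, where 2.25% of all genes were called lower. This was Hspa1b, by -1.76 ± 0.51 (adjusted p = 0.0408), whose reads may be shared with its near-identical copy Hspa1a. That call was lost in 7 of 13 alternatives, among them each of 6 fits without 1 library, with adjusted p of 0.0544 to 0.163, and without the 3 libraries with the fewest genes (0.256). In the mean of the VEA doses Hspa1b was also called, and kept its call in 17 of 19 alternatives (adjusted p from 4.79e-07 to 0.0780). Hspa1a was called there too, in 8 of 19 alternatives. At VEA 12.5, where edgeR called none of the list, DESeq2 and limma-voom each called 1. Of 11 mitochondrial stress chaperones, 0 were called by edgeR or limma-voom at these doses, while DESeq2 called 2 with VEA 12.5 and 4 had an unadjusted p below 0.05 there. With edgeR 7.31% of all genes were called with PG 1100 and 9.71% with VEA 12.5. Beside these shares, 0 calls among 11 genes are not read as particular to the list.

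The genes whose levels ran most like Gdf15 over the 21 libraries, among 10188 with a mean of at least 5 CPM, were Cotl1, Tnfrsf9, Saa3, Ccl9 and Ccl17, with r of 0.95 to 0.96. After group means were removed r was 0.08 to 0.79, highest for Ccl17. Those most like Sdf2l1 were Ccl17, Tnfrsf9, Saa3, Mgl2 and Cxcl1, with r of 0.89 to 0.91 and 0.27 to 0.56 within groups. For the mean of the 4 ER chaperone genes they were Srp54b, Calr, Pdia6, Tuba1c and Nasp, with r of 0.84 to 0.92 and 0.60 to 0.93 within groups. Srp54b has near-identical copies beside it, between which reads may be split. All these are descriptions across libraries that share 7 treatments.

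Markers of other cells moved in the same libraries. Beside their counts stand the shares of all genes called. Called higher were 3.42%, 3.51% and 5.48% with the VEA doses and 4.09% with PG 1100. Called lower were 2.09%, 2.25% and 4.23% with the VEA doses and 3.23% with PG 1100. The summed level of 7 goblet cell markers was 7.12 to 16.4 CPM in ethanol and 69.1 to 211 CPM in VEA, and 2, 2 and 3 of the 6 tested rose with the VEA doses. In PG 1100 the goblet sum was 30.5 to 40.5 CPM beside 4.5 to 17.8 CPM in saline, and 2 rose. Muc5ac, which defines these cells, had no count in 14 of 21 libraries. The summed level of 10 macrophage markers was 2486 to 2857 CPM in ethanol, 3527 to 4500 CPM in VEA and 4209 to 7671 CPM in PG 1100 beside 1879 to 3418 CPM in saline. Of these 10, 6, 5 and 8 rose with the VEA doses and 8 rose with PG 1100. The highest macrophage sum was that of PG 1100 animal 28, beside 4649 and 4209 CPM in animals 27 and 30. The 7 markers of cycling cells summed to 44.7 to 55.6 CPM in ethanol and 114 to 246 CPM in VEA, and all 7 rose with VEA 12.5. In PG 1100 they summed to 127 to 406 CPM beside 46.2 to 80.6 CPM in saline, and 6 of 7 rose. Animal 28 again had the highest sum, beside 135 and 127 CPM in animals 27 and 30. The 6 club cell markers fell in 4, 4 and 5 cases with VEA, from 50822 to 69758 CPM in ethanol to 27639 to 36395 CPM. With PG 1100, 4 fell, from 52468 to 69971 CPM in saline to 22986 to 32458 CPM. Plasma and B cell markers summed to 137 to 141 CPM in ethanol and 108 to 195 CPM in VEA, with 1 of 9 called at each dose. The share of all genes called in either direction was 5.51%, 5.76% and 9.71%. Each sum is weighted to its most abundant markers, such as Sdc1 here (69.1 to 146 CPM over the 21 libraries). For macrophages Lyz2 had 1224 to 4891 CPM and for goblet cells Clca1 had 0.243 to 145 CPM. The part of these cell types in the changes of Gdf15, Sdf2l1, Ddit3 and the wider lists was not tested.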

How the data were processed

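RNA of 21 mouse lungs was sequenced with Lexogen QuantSeq 3′ libraries from 500 ng of total RNA, per the labels' protocols. The submitters' processing notes name Bowtie2, bedtools and mm10, with no versions or roles, and whether counting used strand is not given in the sources used here. The deposited files hold raw counts per gene symbol, 1 file per library, as the authors made them; repeated rows of 35 symbols were summed.

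Genes were filtered by group with filterByExpr, libraries were scaled by TMM, and 1 robust quasi-likelihood model (edgeR 4.0.16, R 4.3.3) held the 7 group means. The 21 libraries left 14 residual degrees of freedom, with a biological coefficient of variation of 23.8%. P-values were adjusted by Benjamini-Hochberg over 14727 genes in each of 11 comparisons. The SE of a log2 fold change is its size over the root of the F statistic. Replicates are libraries whose labels carry numbers of their own, read as separate animals; their counts differed by 12.8 to 30.6 in chi-square per degree of freedom. If they were not separate animals, the p-values measure only the spread between libraries. The fit was tested on simulated data for VEA 12.5 against ethanol, in which a small set of genes above a low level was changed. There edgeR recovered 14.9% of 1.5-fold, 58.2% of 2-fold and 86.4% of 4-fold changes, and 5.36% of its calls were false. In the data 9.71% of all genes were called in that comparison. The p cutoff moves with the number of changed genes, so the simulated rates need not hold for the data. A gene that was not called may still have changed, above all by a small amount.

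The 10 genes and all lists were chosen with earlier results of these data known. Of each list, up to 4 called genes with the largest change are named for each dose against its control. The rule set for naming covered every comparison, but list genes called in the others are named only in part. Of lists with no call only counts are given, although the rule allowed up to 2 names. Likeness was Pearson r over libraries, on log2 CPM (prior count 2). Markers of neutrophils, type II cells, fibroblasts, capillary endothelium, ciliated cells, erythroid cells and cardiac muscle were also read, and their values are in the closing section. Gene positions are from GENCODE M21 for GRCm38, a choice made here. The alternatives used DESeq2 1.42.0, limma-voom (limma 3.58.1), RLE scaling, no count filter, only the groups compared, and leaving out each library. A fit that dropped saline 8, ethanol 13 and VEA 65, which had the fewest genes, and one without Rn45s and haemoglobin were added after the data had been seen.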

Additional observations from a re-analysis of the deposited data

Results flagged for a closer look

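The changes of Gdf15 and Ddit3 with VEA 12.5 and with PG 1100 differed by edgeR's test of the difference itself. For Gdf15 the VEA 12.5 change minus the PG 1100 change was 2.697 on the log2 scale, with all 3 animals of each treated group above their control, and the call was lost in 1 of 19 alternatives, limma-voom (adjusted p = 0.160). For Ddit3 it was 1.07, with VEA 12.5 above ethanol in 3 of 3 animals and 2 of 3 PG 1100 animals below the lowest saline animal. The Ddit3 call held in 10 of 19 alternatives, with adjusted p up to 0.140. It was lost without each of 7 single libraries (saline 6 and 8, ethanol 13 and 14, PG 1100 28, VEA 68 and 70), and reads shared with Mars cannot be told apart from those of Ddit3. The agents were instilled with different controls, so agent and control cannot be told apart in this difference.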

How the results depend on the processing

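No paired analysis was possible because the numbers in the labels are unique to each library and no groups share one. Of the alternative values for the 10 genes, 1529 stayed on their side of the threshold, 30 fell short of it and 15 newly passed. In a fit of the compared groups only, the genes called were 0 for PG 1100 against saline, 5 for VEA 12.5, 5 for the mean of the VEA doses, 0 for PG 1100 against PG 826 and 1 for the difference between agents. With limma-voom they were 0 for PG 1100 against saline and 1 for the difference between agents. Without the 3 libraries with the fewest genes they were 0 and 1 for the same 2 results. Leaving out 1 library at a time gave 0 to 2 for PG 1100 against saline, 2 to 4 for VEA 12.5, 2 to 4 for the mean of the VEA doses, 0 to 4 between the PG doses, 1 to 2 for the difference between agents and 4 to 6 among the 7 groups. It gave 2 in each fit for VEA 3.12 and for VEA 6.25, and 0 in each for PG 826, ethanol against saline, the VEA doses against each other and the trend. Without PG 1100 animal 30 the 1 gene called against saline was Ddit3, lower, in place of Gdf15. The cause of these changes was not tested, beyond the smaller number of samples in those fits. Scaling by RLE or without Rn45s and haemoglobin changed no call of the 10 genes. With 3 animals a group and 5 CPM standing for 41.1 to 64.8 counts, precision is limited for low genes, and Chac1 and Trib3 rest on few counts.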

Other observations

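The remaining marker lists give the setting in which the stress genes were measured, as summed CPM and as counts of called markers. Over all genes 5.48% were called higher and 4.23% lower with VEA 12.5, and 4.09% higher and 3.23% lower with PG 1100. Summed type II cell markers were at 25612 to 30253 CPM in ethanol and 25208 to 33701 CPM in VEA. In PG 1100 they were at 34197 CPM in animal 27, 52965 in animal 28 and 46898 in animal 30, beside 26884 to 37104 CPM in saline. Of the 7 tested, 3 rose and 0 fell with VEA 12.5, and 4 rose and 0 fell with PG 1100. For neutrophil markers the sums were 248 to 502 CPM in ethanol and 330 to 608 CPM in VEA. Of the 5 tested, 0 rose and 0 fell with VEA 12.5, and 0 rose and 0 fell with PG 1100. With edgeR 0 had an unadjusted p below 0.05 at VEA 12.5 and 1 at PG 1100. Summed fibroblast markers were at 1227 to 1503 CPM in ethanol and 1504 to 2082 CPM in VEA. Of the 6 tested, 3 rose and 2 fell with VEA 12.5, and 3 rose and 0 fell with PG 1100. For capillary endothelium markers the sums were 1615 to 1738 CPM in ethanol and 1020 to 1168 CPM in VEA. Of the 6 tested, 0 rose and 4 fell with VEA 12.5, and 0 rose and 6 fell with PG 1100. Summed ciliated cell markers were at 524 to 715 CPM in ethanol and 386 to 508 CPM in VEA. Of the 6 tested, 0 rose and 2 fell with VEA 12.5, and 0 rose and 2 fell with PG 1100. For erythroid markers the sums were 88908 to 113483 CPM in ethanol and 36634 to 81660 CPM in VEA. Of the 8 tested, 0 rose and 8 fell with VEA 12.5, and 0 rose and 7 fell with PG 1100. Summed cardiac muscle markers were at 152 to 350 CPM in ethanol and 70.1 to 215 CPM in VEA. Of the 6 tested, 0 rose and 1 fell with VEA 12.5, and 0 rose and 1 fell with PG 1100. Their part in the changes of the 10 genes was not tested.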
